A study of Oryza sativa Japonica Group with 18 samples.

Results

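The data described here are the control (CK) roots of a potassium study in rice, compared at 5 d and at 3 d after transfer, and they hold 6 of the 18 arrays of the series. Both groups were roots of the cultivar Nipponbare grown in hydroponic culture, moved at 2 weeks of age to a nutrient solution that contained K+, and sampled 5 d (3 arrays) or 3 d (3 arrays) later. The RNA of each array was pooled from 5 seedlings, so the spread between arrays is the spread between pools and seedling-to-seedling variation is not seen. Whole roots were used, so fewer cells of a type and less RNA per cell cannot be told apart. The other arrays hold CK roots at 6 h and, for all 3 times, roots in a solution without K+ (LK). They shared the estimate of spread with the CK arrays and are quoted where they put a change in context. The hour of harvest is not given in the sources used here, so a difference in it between the days cannot be told apart from root age.

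Rice roots of this age elongate and branch, and their older parts mature. Maturing vessels and fibres lay down secondary walls from cellulose made by a dedicated set of cellulose synthases, with xylan and lignin added, whereas growing cells build primary walls with another set of synthases. Roots also run a circadian clock, a loop of transcription factors that peak at different hours of the day. Water moves into roots partly through aquaporins of the plasma membrane and of the vacuole membrane.

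The values are Affymetrix Rice Genome Array signals, in linear intensity units scaled by the authors over all 18 arrays, with array medians between 22.1 and 23.4. Genes were compared as log2 signals (signals under 10 raised to 10) in a limma fit, and a change was called at a Benjamini-Hochberg adjusted p under 0.05. Every adjusted p below comes from that fit. Root genes were expressed in both groups. Lsi2, the silicon exporter of root cells, averaged 4519 units at 5 d and 4314 units at 3 d, and OsCASP1, a Casparian strip protein of the endodermis, averaged 998 units at 5 d and 1140 units at 3 d (adjusted p = 0.51 and 0.20). The median log2 signal over the probe sets kept was 7.34 on CK 3 d replicate 1, the lowest of the 6 arrays, and between 7.42 and 7.50 on the other five.

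Of 25165 probe sets tested, 2314 (9.20%) differed between 5 d and 3 d. At 5 d 1903 (7.56%) were higher and 411 (1.63%) were lower, and 6536 had an unadjusted p under 0.05. Most changes were small: 46 rises and 11 falls reached a ratio of 2, and 392 rises and 96 falls reached 1.5. The arrays of the 2 days did not overlap for 7033 probe sets (27.9%), among them 2249 of the 2314 called. A lack of overlap therefore adds little to a call. The excess of rises depends on scaling. The median log2 change over all probe sets was 0.07, and after quantile normalization there were 982 rises and 885 falls (52.6% higher, against 82.2% as deposited). After centring each array on its median there were 815 rises and 1034 falls (44.1% higher). All 411 falls were still called under both, as were 982 and 815 of the rises. Centring lowered every log2 change by the same amount, and quantile normalization also lowered the median change. Falls grow and rises shrink under such a shift, so the survival of the falls was largely fixed in advance. Without CK 5 d replicate 1 there were 803 calls, without CK 5 d replicate 2 there were 622, and without CK 3 d replicate 1 there were 1158. The calls held in every one of 15 alternative fits were 240 rises and 67 falls. Probe sets too dim to enter a fit, such as that of the brightest 30%, were left out of this count even where no call was lost. A fit of only the 6 arrays compared called 591 probe sets, and 62 of the 109 called genes and probe sets chosen to be named lost the call in it. After median centring 35 of the 109 did. Over the 14751 genes with an annotated probe set, 1051 (7.12%) rose and 262 (1.78%) fell, 8.90% in all. After median centring 2.55% of these genes rose and 4.73% fell. The counts of list genes below are read against these shares.

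The largest fall among named genes was that of HSF03, a heat stress transcription factor. Its signals were 43.0, 35.4 and 34.6 at 5 d, against 89.5, 114 and 108 at 3 d. The highest 5 d array lay well below the lowest 3 d array, and the log2 change was -1.46 ± 0.13 (SE, adjusted p = 3.9e-05). At 6 h HSF03 averaged 266 units in CK roots, so its level was lowest at the last of the 3 times. BBD1, a nuclease named for its part in basal defence, gave 15.2, 14.3 and 20.8 units at 5 d and 39.5, 46.0 and 36.8 units at 3 d, again without overlap and with a log2 change of -1.29 ± 0.18 (adjusted p = 7.1e-04). All 3 of its 5 d signals lay below the array medians. It averaged 362 units at 6 h. The gene LOC4332353 averaged 33.9 units at 5 d and 92.2 units at 3 d (log2 change -1.46 ± 0.12, adjusted p = 2.9e-05), and LOC4350698 averaged 29.3 units at 5 d and 74.8 units at 3 d (log2 change -1.37 ± 0.13, adjusted p = 4.2e-05). Both had been higher at 6 h, at 585 and 267 units.

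The members of the circadian clock that were tested moved in opposite directions. Of 7 genes, 2 rose, 3 fell and 2 did not pass the test. CCA1, the MYB factor of the morning part of the loop, gave 1269.6, 1262 and 1129 units at 5 d, against 729.6, 800.2 and 812 units at 3 d. Every 5 d array was higher, with a log2 change of 0.64 ± 0.07 (adjusted p = 1.0e-04). OsPRR1, the rice counterpart of the evening repressor TOC1 of Arabidopsis, gave 174, 168 and 180.0 units at 5 d, against 247, 244 and 262 units at 3 d. It was lower on every 5 d array (log2 change -0.53 ± 0.07, adjusted p = 7.1e-04). Both calls held in every alternative fit.

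The other clock genes moved less or rested on low signals. OsPRR73, a pseudo-response regulator, was higher at 5 d (log2 change 0.29 ± 0.08, adjusted p = 0.025), and OsPRR95, of the same family, was lower (log2 change -0.26 ± 0.07, adjusted p = 0.036). OsPCL1, counterpart of the evening complex gene LUX, gave 18.9, 25.6 and 26.6 units at 5 d and 33.0, 30.6 and 42.2 units at 3 d, near the array medians (log2 change -0.58 ± 0.13, adjusted p = 0.013). Its arrays did not overlap between the days, and its level at both was far under the 947 units it averaged at 6 h. OsPRR37 had a log2 change of 0.23 ± 0.07 (adjusted p = 0.053) and GI, which controls flowering time and clock proteins, one of 0.04 ± 0.05 (adjusted p = 0.64). The OsPRR73 call was lost without CK 5 d replicate 1, CK 5 d replicate 2 or CK 3 d replicate 1 (adjusted p up to 0.13) and after centring (0.10). The OsPRR95 call was lost on leaving out any array but CK 3 d replicate 1 (up to 0.12), and that of OsPCL1 without CK 5 d replicate 1 or CK 3 d replicate 3 (up to 0.074).

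**Figure D1:**
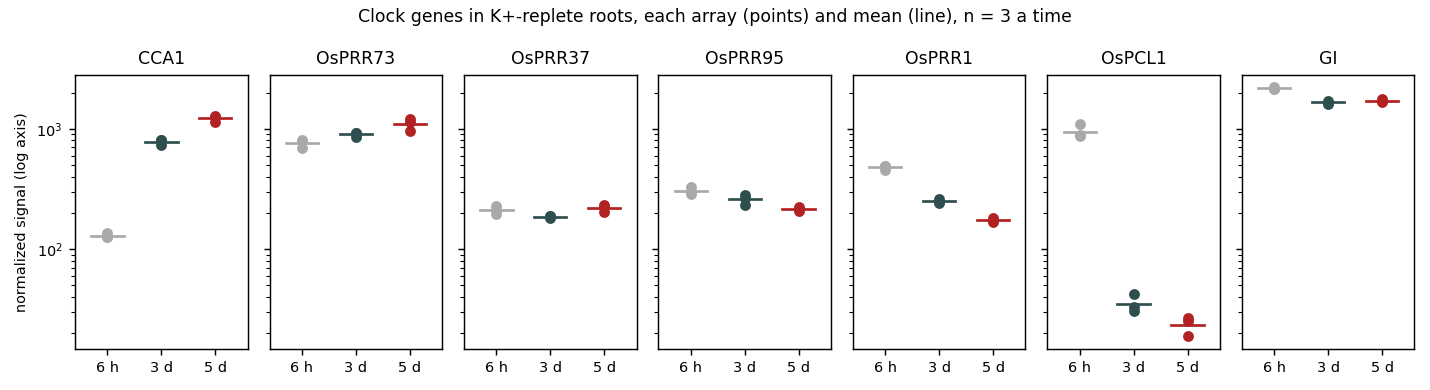
Signals of 7 clock genes in CK roots at 6 h, 3 d and 5 d, in intensity units on a log axis, with a point for each array and a line at each mean. CCA1 averaged 129.9 units at 6 h, 780.5 at 3 d and 1220.2 at 5 d, whereas OsPRR1 averaged 480.4, 251 and 174 units at the same times.

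The plot of clock genes shows that for CCA1, OsPRR1 and OsPCL1 the 6 h and 3 d means lay further apart than the 3 d and 5 d means. Clock genes change through the day and the hour of harvest is not given. A difference in hour between the 3 times therefore cannot be told apart from root age. For CCA1 the mean was 129.9 ± 5.73 units at 6 h, 780.5 ± 44.4 at 3 d and 1220.2 ± 78.8 at 5 d (SD, n = 3). OsPRR1 ran the other way, with 480.4 ± 21.6 units at 6 h, 251 ± 9.92 at 3 d and 174 ± 6.13 at 5 d. Any change between 6 h and 3 d uses the same 3 d arrays as the change described here and gives no second measurement of it.

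CESA4, CESA7 and CESA9, the 3 cellulose synthase subunits of secondary walls in rice, all rose. CESA4 gave 1870.4, 1891 and 1707 units at 5 d, against 1184, 1314 and 1269 units at 3 d, with no overlap (log2 change 0.54 ± 0.07, adjusted p = 2.9e-04). CESA9 averaged 1611 ± 82.3 units at 5 d and 1146 ± 133 units at 3 d (SD, n = 3; log2 change 0.50 ± 0.07, adjusted p = 0.0013). CESA7 averaged 1294 ± 17.1 units at 5 d and 1002 ± 73.9 units at 3 d (log2 change 0.37 ± 0.07, adjusted p = 0.0056). The lowest 5 d array of each stood above its highest 3 d array. At 6 h CESA4, CESA9 and CESA7 averaged 1400, 1312 and 1057 units in CK roots, above their 3 d means.

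No synthase of primary walls passed the test. CESA1, CESA3, CESA5, CESA6 and CESA8 had log2 changes between 0.06 and 0.12, with adjusted p between 0.085 and 0.56. The difference between the 2 sets of synthases was not tested. CESA3 was the one nearest to the threshold, with 3949, 4129.6 and 3796 units at 5 d and 3501, 3735 and 3653 units at 3 d. The change of CESA6 turned to -0.030 after centring each array and to -0.016 without CK 3 d replicate 1. CESA2 was below the filter on low signals. In LK roots these 5 synthases had log2 changes between -0.20 (CESA6, adjusted p = 0.041) and -0.07, the others not passing the test, and the difference from CK roots was called for none of them. These synthases, CESA2, BC1, OsTBL6, OsTBL15, 4CL3, MCM4, MCM5, EXPB4, CSLA5, OsTIP4;1, OsPP2C26 and RAB21 were named after their values had been seen.

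Some other wall genes were also higher at 5 d. They were picked for their rises or after their values had been seen, and no list of secondary wall genes was counted. BC1, a COBRA-like protein named for the brittle culm mutant of rice, gave 1115, 1164 and 1080.5 units at 5 d, against 853, 724 and 716 units at 3 d (log2 change 0.56 ± 0.09, adjusted p = 0.0019). OsTBL6 and OsTBL15, members of the trichome birefringence-like family whose studied members acetylate wall polysaccharides, had log2 changes of 0.47 ± 0.09 and 0.30 ± 0.06 (adjusted p = 0.0044 for each). LAC10, a laccase, an enzyme class that polymerizes lignin precursors, gave 909, 946 and 779.6 units at 5 d and 564, 595 and 465 units at 3 d (log2 change 0.70 ± 0.11, adjusted p = 0.0017). All 7 of these genes were called in every alternative fit. In LK roots, measured on other arrays, all 7 were also called higher at 5 d than at 3 d, with log2 changes between 0.25 (OsTBL15) and 0.52 (LAC10). At 6 h BC1, LAC10, OsTBL6 and OsTBL15 averaged 872, 637, 862 and 1121 units in CK roots, above their 3 d means.

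**Figure D2:**
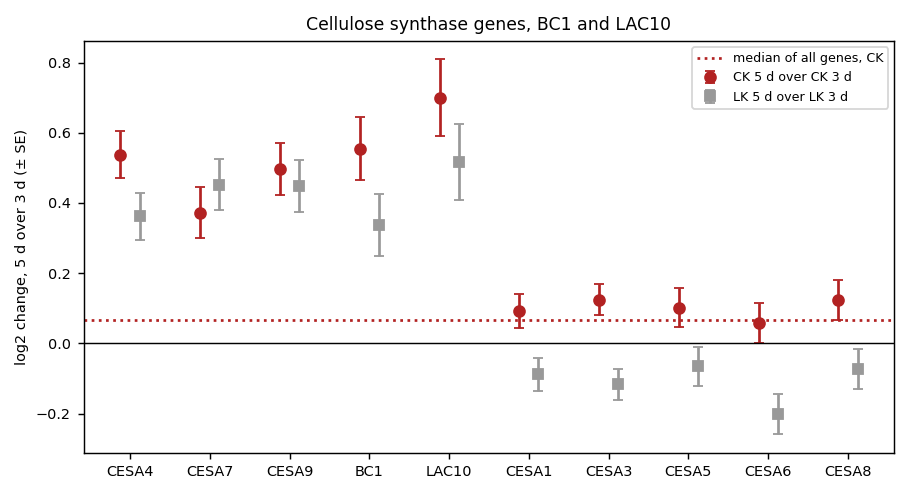
Log2 change between 5 d and 3 d (5 d minus 3 d) of 10 wall genes in CK roots and in LK roots, with bars of 1 SE from the limma fit and a dotted line at the median of all genes. CESA4, CESA7, CESA9, BC1 and LAC10 lie between 0.37 and 0.70 in CK roots, and CESA1, CESA3, CESA5, CESA6 and CESA8 between 0.06 and 0.12.

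Of 58 tested genes for expansins and wall polysaccharide enzymes, 5 rose and 1 fell, with a median log2 change of 0.07, equal to that of all genes at this precision, and after median centring 4 rose and 2 fell. Besides the 3 synthases, EXPA7, an alpha-expansin that loosens walls, gave 219, 224 and 206 units at 5 d, against 115, 153 and 174 units at 3 d (log2 change 0.57 ± 0.13, adjusted p = 0.011). Its 5 d arrays were all higher, and the call was lost without CK 5 d replicate 2 (adjusted p = 0.058). The beta-expansin EXPB4 rose by a log2 of 0.17 (adjusted p = 0.036) and the cellulose synthase-like gene CSLA5 fell by 0.34 on the log2 scale (adjusted p = 0.014).

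Among 25 genes of the phenylpropanoid pathway and laccases, 5 rose and none fell, and 2 rises and 1 fall were called after median centring. The median log2 change was 0.06, against 0.07 over all genes. CHS, chalcone synthase, which opens the flavonoid branch, gave 340.4, 344 and 297 units at 5 d and 209.5, 211 and 168 units at 3 d. Each 5 d array was above each 3 d array (log2 change 0.74 ± 0.12, adjusted p = 0.0019). A second, dimmer CHS probe set did not move with it (log2 change 0.02 ± 0.14, adjusted p = 0.96). PAL, the entry enzyme of the pathway, averaged 4860.3 ± 98.9 units at 5 d and 4223 ± 248 units at 3 d (log2 change 0.20 ± 0.05, adjusted p = 0.013), and CAD, which makes lignin alcohols, averaged 3782 ± 49.0 units at 5 d and 3340.2 ± 63.0 units at 3 d (log2 change 0.18 ± 0.04, adjusted p = 0.012). Both lost the call without CK 5 d replicate 1 or CK 5 d replicate 2, PAL also without CK 3 d replicate 1, and both after centring (adjusted p = 0.075 and 0.14). Other PAL probe sets had log2 changes of 0.52, 0.14, 0.16 and 0.09 (adjusted p = 0.0085, 0.061, 0.50 and 0.58). 4CL3, a ligase that activates hydroxycinnamic acids, gave 2094, 2156 and 3280.1 units at 5 d and 1713, 1889.9 and 1761 units at 3 d (log2 change 0.46 ± 0.11, adjusted p = 0.018). Replicate 3 stood apart from the other 5 d arrays, and the call was lost without CK 3 d replicate 1 (adjusted p = 0.064) and after centring (0.058).

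Some aquaporins rose. Of 20 genes for aquaporins and silicon transport, 4 rose and 1 fell, both as deposited and after median centring, with a median log2 change of 0.08. OsTIP1;2, a vacuole membrane aquaporin, gave 1653, 1316 and 1462 units at 5 d, against 883, 922 and 855 units at 3 d, without overlap (log2 change 0.73 ± 0.09, adjusted p = 3.0e-04). Among those of the plasma membrane, OsPIP2;5 averaged 1875 ± 13.0 units at 5 d and 1327 ± 46.9 units at 3 d (log2 change 0.50 ± 0.09, adjusted p = 0.0028). OsPIP2;4 averaged 3569 ± 38.2 units at 5 d and 2736 ± 77.4 units at 3 d (log2 change 0.38 ± 0.05, adjusted p = 7.5e-04). OsPIP1;1, among the brightest genes of the list, rose by a log2 of 0.22 ± 0.04 (adjusted p = 0.0028). All 4 rises held in every alternative fit, while OsTIP4;1 fell by 0.23 on the log2 scale (adjusted p = 0.040).

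Of 21 potassium and sodium transport genes, 3 rose and none fell, against 7.12% and 1.78% of all genes. HKT1;5, a sodium transporter of the xylem parenchyma, averaged 90.9 ± 8.12 units at 5 d and 59.9 ± 7.84 units at 3 d (log2 change 0.61 ± 0.17, adjusted p = 0.035). HAK16, a potassium transporter of the HAK family, averaged 253 ± 21.6 units at 5 d and 191 ± 27.9 units at 3 d (log2 change 0.41 ± 0.10, adjusted p = 0.016), and AKT1, the inward potassium channel of roots, averaged 1433 ± 46.6 units at 5 d and 1187 ± 36.1 units at 3 d (log2 change 0.27 ± 0.07, adjusted p = 0.024). After centring only HAK16 was still called. HAK16 lost the call without CK 5 d replicate 2 or CK 3 d replicate 1 (adjusted p up to 0.093), HKT1;5 on leaving out any array but CK 5 d replicate 3 or CK 3 d replicate 2 (up to 0.15), and AKT1 on leaving out any array but CK 3 d replicate 3 (up to 0.088). None of 20 nitrogen genes and none of 13 phosphate genes passed the test, and 1 of 9 sulfate genes rose. After median centring none of the nitrogen genes, 2 phosphate genes (both lower) and 2 sulfate genes (1 higher and 1 lower) were called.

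The sulfate gene that rose as deposited was APR1, which reduces activated sulfate in the path to cysteine. It gave 1137, 1253 and 1221 units at 5 d, against 842, 871 and 792 units at 3 d. The log2 change of 0.53 ± 0.05 had an adjusted p of 4.7e-05, and the call held in every alternative fit. At 6 h APR1 averaged 1952 units, above both later times. Metal-binding and metal transport genes went both ways, with 1 rise and 2 falls among 27, and no rise and 2 falls after median centring. The metallothionein MT4A gave 2344, 2544 and 2648 units at 5 d and 3777, 4006 and 3688 units at 3 d, every 5 d array being lower (log2 change -0.61 ± 0.09, adjusted p = 7.9e-04), whereas MT2C, of the same class, averaged 5774 ± 474 units at 5 d and 4776 ± 166 units at 3 d (log2 change 0.27 ± 0.08, adjusted p = 0.048). The MT2C call was lost on leaving out any array but CK 5 d replicate 3 (adjusted p up to 0.19) and after centring (0.15). Other MT2C probe sets had log2 changes between 0.21 and 0.36, and none passed the test (adjusted p between 0.052 and 0.15). The zinc transporter OsZIP4 averaged 352 ± 34.2 units at 5 d and 443 ± 18.3 units at 3 d (log2 change -0.34 ± 0.08, adjusted p = 0.021), a call lost without CK 5 d replicate 3, CK 3 d replicate 2 or CK 3 d replicate 3. At 6 h OsZIP4 averaged 323 units in CK roots, below its 3 d mean.

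**Figure D3:**
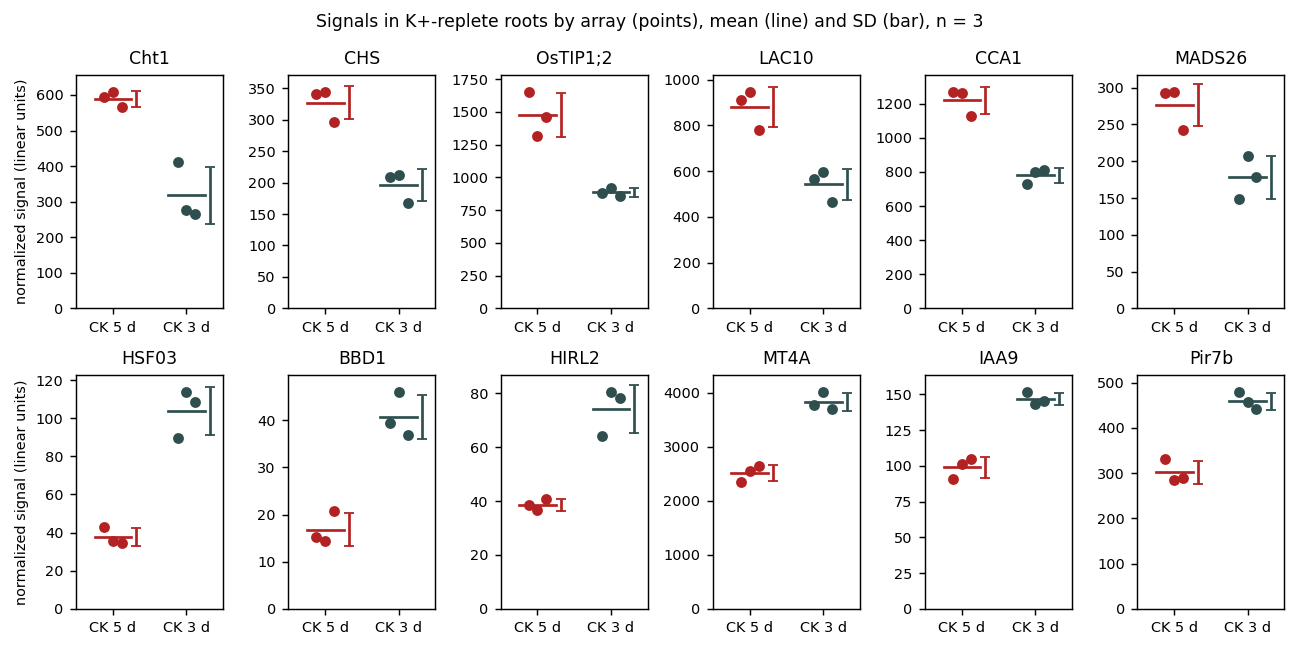
Signals of 12 named genes on the 3 arrays of CK 5 d (left in each panel) and the 3 arrays of CK 3 d (right), in intensity units, with the mean as a line and bars of 1 SD. Cht1, CHS, OsTIP1;2, LAC10, CCA1 and MADS26 lie higher at 5 d and HSF03, BBD1, HIRL2, MT4A, IAA9 and Pir7b lower. The days do not overlap in any panel, which was a condition for choosing these genes.

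Some defence-related genes rose. Of 17 genes for chitinases, germins and other defence proteins, 3 rose and none fell, and the same count was called after centring. Over all genes 7.12% rose and 1.78% fell as deposited, and 2.55% and 4.73% after centring. Cht1, a chitinase, gave 594, 609 and 565 units at 5 d, against 411, 277 and 266 units at 3 d (log2 change 0.92 ± 0.15, adjusted p = 0.0020). It was higher on every 5 d array, although 1 of the 3 d arrays stood above the other two. The germin-like genes GER6 and GLP2 were among the bright genes, with 2989.5 ± 102 units at 5 d against 2091 ± 164 at 3 d and 3612 ± 175 units at 5 d against 2603 ± 47.5 at 3 d (log2 changes 0.52 ± 0.08 and 0.47 ± 0.09, adjusted p = 0.0015 and 0.0059). At 6 h GER6 averaged 3214 units and GLP2 4432 units in CK roots, above both later times. All 3 rises were called in every alternative fit. In the opposite direction, Pir7b, an esterase first found in infected rice, gave 331, 285 and 289 units at 5 d and 479, 457 and 441 units at 3 d (log2 change -0.61 ± 0.11, adjusted p = 0.0044). At 6 h Pir7b averaged 304 units in CK roots, below its 3 d signals. Beta-glucosidases, which release sugars from conjugates, had 3 rises and no fall among 20, and 1 rise and 1 fall after median centring. Of the rises as deposited, BGLU16 was the largest (log2 change 0.46 ± 0.10, adjusted p = 0.012). The BGLU16 call was lost without CK 5 d replicate 2 (adjusted p = 0.080).

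Sugar transport genes gave 4 rises and no fall among 23, and 2 rises and no fall after median centring. The shares over all genes were 7.12% and 1.78%, and 2.55% and 4.73% after centring. OsSWEET4, a sugar exporter family member, gave 803, 815 and 656 units at 5 d, against 576, 577 and 471 units at 3 d (log2 change 0.49 ± 0.09, adjusted p = 0.0053). The 5 d arrays were all higher, and with only the 6 arrays compared in the fit the adjusted p was 0.056. The other rises were of dim genes. OsSWEET16 had the largest rise among named genes on the log2 scale (1.12 ± 0.27, adjusted p = 0.018), with 36.2, 45.9 and 38.1 units at 5 d and 7.16, 29.6 and 20.8 units at 3 d. Its lowest 3 d signal lay below 10 and was raised to it, and the call was lost without CK 5 d replicate 2 or CK 3 d replicate 1 (adjusted p up to 0.092). At 6 h OsSWEET16 averaged 39.3 units in CK roots, above its 3 d signals. OsSUT1, a sucrose transporter, and OsSUS6, a sucrose synthase, averaged 42.4 and 49.1 units at 5 d against 29.1 and 37.0 units at 3 d (adjusted p = 0.037 and 0.032), and each lost its call in 5 of the 6 fits that left out an array, OsSUT1 keeping it without CK 5 d replicate 3 and OsSUS6 without CK 3 d replicate 3. After centring neither was called (adjusted p = 0.078 and 0.086). HXK6, a hexokinase of the sugar-sensing type, was lower, at 106 ± 7.85 units at 5 d and 139.6 ± 4.89 units at 3 d (log2 change -0.41 ± 0.08, adjusted p = 0.0060, or 0.060 with only the 6 arrays compared). At 6 h HXK6 averaged 118 units in CK roots, below its 3 d mean.

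Of 50 auxin genes 5 rose and 1 fell, against 7.12% and 1.78% of all genes, with a median log2 change of 0.13. After median centring 2 rises and 3 falls were called. IAA9, an Aux/IAA repressor of auxin responses, gave 90.7, 102 and 105 units at 5 d, against 152, 143 and 145 units at 3 d (log2 change -0.57 ± 0.09, adjusted p = 0.0018, called in every alternative). The auxin response factor ARF1 averaged 845 ± 92.5 units at 5 d and 632 ± 57.4 units at 3 d (log2 change 0.42 ± 0.08, adjusted p = 0.0064, or 0.061 with only the 6 arrays compared). OsPIN5, of the auxin efflux family, gave 52.7, 55.2 and 42.0 units at 5 d and 20.7, 32.8 and 32.4 units at 3 d (log2 change 0.82 ± 0.18, adjusted p = 0.011). OsPIN5 was dim, and with a floor of 50 units its adjusted p was 0.69. Without CK 5 d replicate 1 or CK 5 d replicate 2 it was up to 0.065.

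The 2 cytokinin genes called among 27 both rose, and after median centring 2 rises and 1 fall were called. As deposited 7.12% of all genes rose, so 2 of 27 is near that share. CKX4, an oxidase that degrades cytokinins, gave 123, 132 and 109 units at 5 d and 52.6, 87.4 and 78.2 units at 3 d (log2 change 0.77 ± 0.20, adjusted p = 0.023). The groups did not overlap, and the call was lost without CK 5 d replicate 1, CK 5 d replicate 2 or CK 3 d replicate 1 (adjusted p up to 0.11). HK5, a histidine kinase receptor, averaged 754 ± 43.2 units at 5 d and 594 ± 34.5 units at 3 d (log2 change 0.34 ± 0.07, adjusted p = 0.0078). EIN2, the central transducer of ethylene signals, was the call among 9 ethylene genes (log2 change 0.25 ± 0.05, adjusted p = 0.010). After centring its adjusted p was 0.10, and the list had no rise and 2 falls. The list's median log2 change was -0.095 as deposited. HK5 and EIN2 lost the call without CK 5 d replicate 2 (adjusted p = 0.051 and 0.058). CYP85A1, which catalyses late steps of brassinosteroid synthesis, averaged 194 ± 23.1 units at 5 d and 137 ± 6.90 units at 3 d (log2 change 0.49 ± 0.08, adjusted p = 0.0026) and was called in every alternative fit.

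The 68 genes of abscisic acid, dehydrins and LEA proteins had 3 rises and 3 falls and a median log2 change of 0.00. After median centring there were 1 rise and 5 falls, with a median of -0.08. All 6 calls as deposited were protein phosphatases of group 2C, some of which brake abscisic acid signals. OsPP2C09 gave 358, 333 and 389 units at 5 d, against 686, 522 and 465 units at 3 d (log2 change -0.61 ± 0.11, adjusted p = 0.0035), and it was lower on every 5 d array. With only the 6 arrays compared its adjusted p was 0.051. At 6 h OsPP2C09 averaged 338 units in CK roots, below its 3 d signals. OsPP2C11 averaged 507 ± 29.9 units at 5 d and 668 ± 33.8 units at 3 d (log2 change -0.40 ± 0.09, adjusted p = 0.0096), a call lost without CK 5 d replicate 1 or CK 5 d replicate 2 (adjusted p = 0.051). The largest of their rises was that of OsPP2C26 (log2 change 0.26, adjusted p = 0.045). RAB21, a dehydrin, had a larger log2 change of 0.93 that did not pass the test (adjusted p = 0.080). Of 33 jasmonate genes, OPR5, a reductase of the oxophytodienoate type, was lower (log2 change -0.31 ± 0.07, adjusted p = 0.019), and JAZ1, a repressor of the jasmonate response, was higher (0.20 ± 0.06, adjusted p = 0.043). OPR5 lost its call without CK 5 d replicate 1, CK 5 d replicate 2 or CK 3 d replicate 2 (adjusted p up to 0.12), and JAZ1 without CK 5 d replicate 1, CK 5 d replicate 2, CK 3 d replicate 1 or CK 3 d replicate 3 (up to 0.19). After median centring JAZ1 was not called (adjusted p = 0.18), and the list had no rise and 1 fall.

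The haemoglobins NSHB1 and NSHB2, oxygen-binding proteins that oxygen shortage induces in plants, were the calls among 7 hypoxia and fermentation genes, and both fell. After median centring 3 genes of the list were called, all lower. NSHB2 gave 992, 942 and 899.8 units at 5 d, against 1447, 1169 and 1651 units at 3 d (log2 change -0.58 ± 0.16, adjusted p = 0.034). NSHB1 averaged 2982 ± 162 units at 5 d and 3563 ± 234 units at 3 d (log2 change -0.26 ± 0.07, adjusted p = 0.038). Neither gene overlapped between the days. At 6 h NSHB2 and NSHB1 averaged 777 and 2331 units in CK roots, below their 3 d means. Each call was lost on leaving out any array but CK 3 d replicate 2, with adjusted p up to 0.11 for NSHB2 and 0.14 for NSHB1.

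Of 33 heat shock genes 2 rose and 2 fell, against 7.12% and 1.78% of all genes. After median centring none rose and 3 fell. Besides HSF03, HSP18.0, a small heat shock protein, was lower on its brightest probe set, which gave 346, 428 and 384 units at 5 d and 521, 551 and 509.8 units at 3 d (log2 change -0.45 ± 0.07, adjusted p = 0.0020). A second HSP18.0 probe set moved the other way (log2 change 0.52 ± 0.12, adjusted p = 0.013), so the gene has no single direction on this array. HSF1 and HSP81-1 rose by a log2 of 0.30 ± 0.09 and 0.13 ± 0.04 (adjusted p = 0.041 and 0.049), and both calls were lost on leaving out any 1 of the 6 arrays and after centring. A second HSP81-1 probe set had a log2 change of -0.24 ± 0.14 (adjusted p = 0.28). A second HSF1 probe set had one of 0.31 ± 0.09 (adjusted p = 0.046).

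Of 53 replication and kinesin genes tested, 4 rose and none fell, all 4 being kinesins, the motors of microtubules. The log2 change was above 0 for 48 of the 53, as it was for 67.4% of all genes, and the median was 0.20, against 0.07 over all genes. KIN14H, the one with the lowest adjusted p, averaged 636 ± 50.2 units at 5 d and 522 ± 6.63 units at 3 d (log2 change 0.28 ± 0.06, adjusted p = 0.011, lost without CK 5 d replicate 1 or CK 5 d replicate 2 and after centring). After median centring the list's median was 0.11 and no gene was called. MCM4 and MCM5, subunits of the replicative helicase, gave 511 ± 46.4 and 404 ± 33.5 units at 5 d against 401 ± 85.9 and 322 ± 16.3 units at 3 d, and did not pass (adjusted p = 0.082 for each). CK 3 d replicate 1 was the lowest array for both. At 6 h they averaged 504 and 357 units in CK roots, above their 3 d means. The summed signal of 12 genes that mark dividing cells ran from 10900 to 12355 units at 5 d and from 9889 to 11374 units at 3 d, so the ranges overlapped. Its part in the other changes was not tested.

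Photosynthesis genes were detected in these roots. Of 26 tested, 1 rose and 1 fell, and the median log2 change was 0.18. OsPSAG, a subunit of photosystem I, gave 87.8, 97.4 and 70.5 units at 5 d and 55.5, 50.5 and 59.1 units at 3 d (log2 change 0.62 ± 0.15, adjusted p = 0.015). The call was lost without CK 5 d replicate 1, CK 5 d replicate 2 or CK 3 d replicate 2 (adjusted p up to 0.095). GLK1, a factor that activates chloroplast genes, had a larger log2 change of 0.74 ± 0.24 that did not pass (adjusted p = 0.061), with 71.8, 81.7 and 58.5 units at 5 d and 48.2, 41.5 and 36.6 units at 3 d. TPT, the triose phosphate exporter of plastids, was lower (log2 change -0.20 ± 0.06, adjusted p = 0.038, lost on leaving out any 1 of the 6 arrays). OsrbcS, the small subunit of Rubisco, gave 120.1, 134 and 110.1 units at 5 d and 221, 317 and 50.8 units at 3 d, so the 3 d arrays disagreed more with one another than with the 5 d arrays. The summed signal of 30 green-tissue genes was between 11495 and 12804 units at 5 d and between 9939 and 12290 units at 3 d, with overlapping ranges. Its part in the other results was not tested.

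The remaining large changes of named genes belonged to no single group. MADS26, a MADS-box factor, gave 292, 294 and 243 units at 5 d, against 149, 207 and 179 units at 3 d (log2 change 0.64 ± 0.12, adjusted p = 0.0041). It was called in every alternative fit, as was OsC3H60, a CCCH zinc finger gene (219 ± 30.5 units at 5 d and 125 ± 22.0 units at 3 d, log2 change 0.81 ± 0.14, adjusted p = 0.0029). ADCS, an enzyme of folate synthesis, averaged 95.0 ± 12.4 units at 5 d and 56.5 ± 3.33 units at 3 d (log2 change 0.74 ± 0.12, adjusted p = 0.0018). At 6 h it averaged 89.2 units in CK roots, above its 3 d mean. FON1, a receptor kinase known from the floral meristem, averaged 571 ± 89.5 units at 5 d and 347 ± 58.2 units at 3 d (log2 change 0.72 ± 0.17, adjusted p = 0.014), a call lost without CK 5 d replicate 1, CK 5 d replicate 2 or CK 3 d replicate 1. The phospholipase gene pla2-II completed the 15 largest rises (log2 change 0.60 ± 0.14, adjusted p = 0.013, lost without CK 5 d replicate 2).

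Among the falls, HIRL2 gave 38.5, 36.5 and 40.8 units at 5 d, against 64.0, 80.5 and 78.2 units at 3 d (log2 change -0.94 ± 0.14, adjusted p = 9.8e-04). All of its 5 d signals were lower. OsC3H37, another CCCH zinc finger gene, had a log2 change of -0.62 ± 0.16 (adjusted p = 0.024), LPR1, whose Arabidopsis namesake is a multicopper oxidase of the root response to low phosphate, one of -0.57 ± 0.13 (adjusted p = 0.014) and ADF6, an actin-depolymerizing factor, one of -0.50 ± 0.11 (adjusted p = 0.011). NAC048, a NAC transcription factor, averaged 889 ± 189 units at 5 d and 1295 ± 87.4 units at 3 d (log2 change -0.56 ± 0.12, adjusted p = 0.0081). CIPK20, a kinase that partners calcium sensors, averaged 45.5 ± 0.823 units at 5 d and 67.5 ± 6.14 units at 3 d (log2 change -0.56 ± 0.12, adjusted p = 0.0086). Without CK 5 d replicate 2 the calls of NAC048 and ADF6 were lost, as were those of OsC3H37 and LPR1, which were also lost without CK 5 d replicate 1 or CK 3 d replicate 1. ADF6 was also lost without CK 3 d replicate 1. At 6 h NAC048, ADF6 and CIPK20 averaged 1010, 114 and 51.5 units in CK roots, below their 3 d means. The 6 h means of LPR1 and OsC3H37, 273 and 173 units, were below their 3 d means as well.

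The 5 largest rises over all probe sets had no annotated gene. OsAffx.23039.1.S1_x_at gave 202, 105 and 43.1 units at 5 d, against 18.2, 11.3 and 19.4 units at 3 d (log2 change 2.61 ± 0.49, adjusted p = 0.0043). All of its 3 d signals lay below the array medians, and with a floor of 50 units the call was lost (adjusted p = 0.11). At 6 h this probe set averaged 52.7 units in CK roots, above its 3 d signals. Its 5 d arrays spanned a wide range, and replicate 3 was the lowest of them, as it was for 3 of the other four. OsAffx.28001.1.S1_s_at was the exception, with 119, 153 and 146 units at 5 d and 24.4, 29.6 and 37.1 units at 3 d (log2 change 2.21 ± 0.29, adjusted p = 4.8e-04). The largest fall without a gene was OsAffx.2917.1.S1_at, with 42.3, 60.5 and 62.1 units at 5 d and 93.3, 128 and 185 units at 3 d (log2 change -1.26 ± 0.25, adjusted p = 0.0062).

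**Figure D4:**
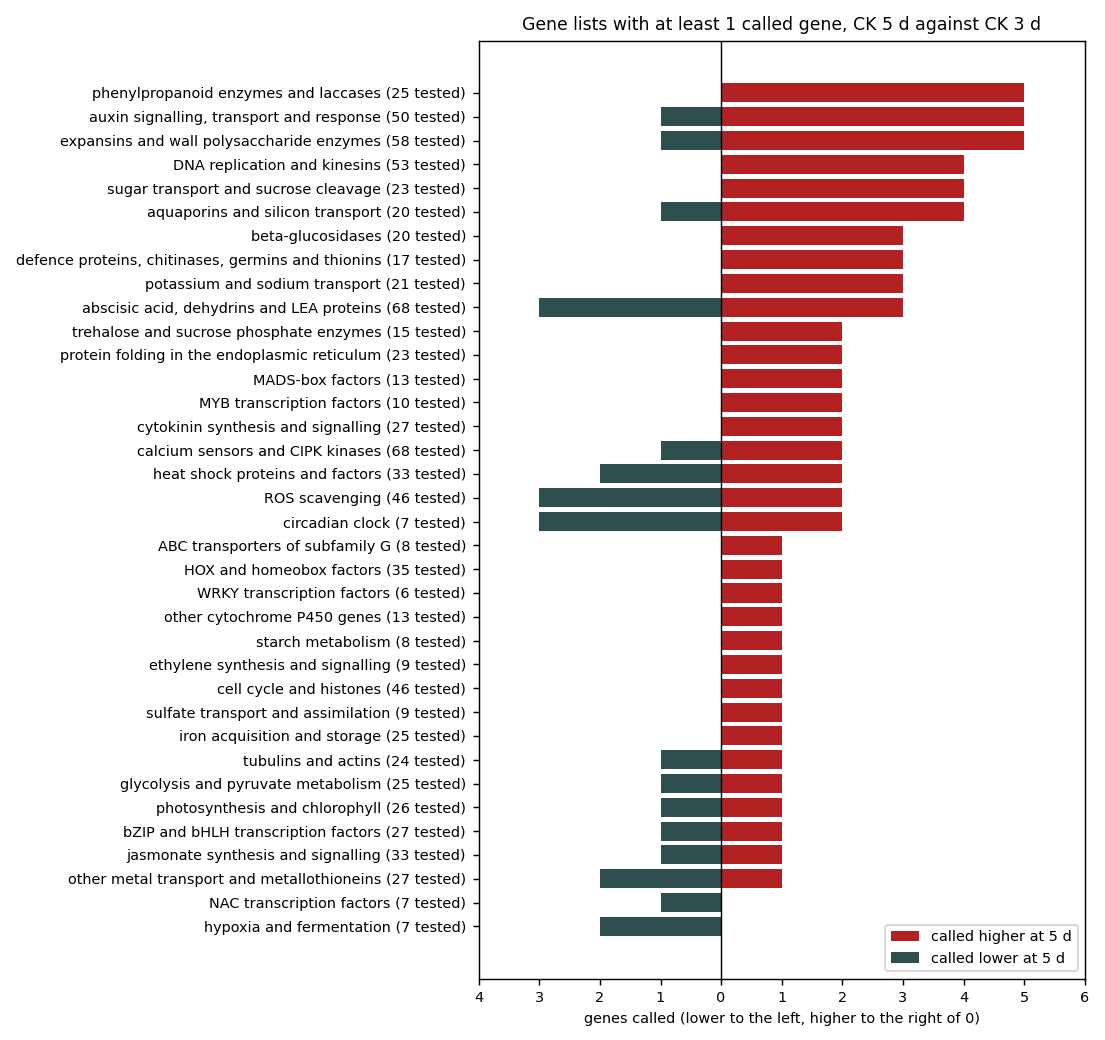
Number of genes called higher (right of 0) and lower (left of 0) in CK roots at 5 d against 3 d in each gene list that held a called gene. Expansins and wall enzymes, phenylpropanoid genes and auxin genes had 5 rises each, and ROS scavenging, abscisic acid and clock genes had 3 falls each. The counts are for the deposited scaling, under which 20 lists held only rises and 2 only falls, against 8 and 16 after median centring.

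Of the 49 gene lists searched, 20 held only rises, 2 held only falls, 14 held both and 13 held no called gene, as the plot of called genes per list shows. After median centring the split turned round, with 8 lists of only rises, 16 of only falls, 12 of both and 13 without a call. As deposited, the lists without a call included 25 ribosomal protein genes, 21 CASP and CASP-like genes, 17 proteasome genes, 13 gibberellin genes and 12 genes of labdane diterpenoid synthesis. After centring 2 ribosomal protein genes and 1 CASP gene were called lower. The list of NAC factors had 1 fall, that of NAC048. A list count is read against the 7.12% of all genes called higher and the 1.78% called lower. The 4 of 53 replication and kinesin genes and the 5 of 58 wall genes called higher are close to that share, and the lists were given no test of their own.

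In LK roots, 5 d against 3 d was measured on 6 other arrays, and 1917 probe sets (7.62%) were called, 1169 higher (4.65%) and 748 lower (2.97%). Both treatments called 573 probe sets, of which 369 were higher in both, 167 lower in both and 37 opposite. The 536 that shared a direction were 23.2% of the CK calls and 28.0% of the LK calls. Falls were shared more often than rises by this count: 40.6% of the CK falls and 19.4% of the CK rises were called in the same direction in LK roots, a difference that was not tested. Over all calls, 1681 of 1903 rises (88.3%) and 324 of 411 falls (78.8%) had the same direction in LK roots. The CK and LK changes had a Pearson correlation of 0.46 over all probe sets tested, and their share with a common direction was not counted. Over the 15 largest named rises, 14 had the same direction in LK roots and 10 were called there. Over the 15 largest named falls, 13 had the same direction and 11 were called.

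**Figure D5:**
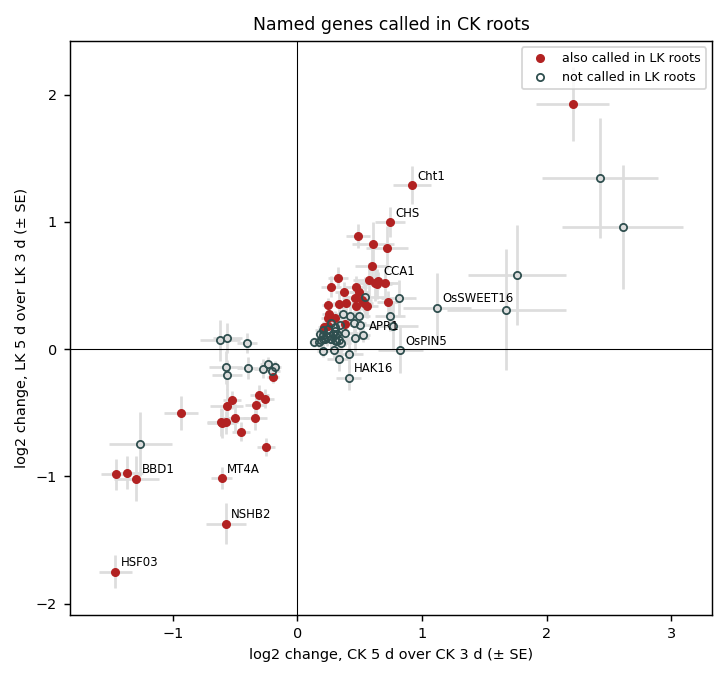
Log2 change between 5 d and 3 d of the named called genes in CK roots (horizontal axis) and in LK roots (vertical axis), with a point for each gene or probe set (filled where it was also called in LK roots) and bars of 1 SE. Most points lie in the 2 quadrants where both changes have the same sign, and HSF03 lies lowest on the vertical axis (-1.46 in CK roots and -1.75 in LK roots).

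The difference between the treatments was tested for each probe set and was called for 259 (1.03%), 96 of them among the CK calls. For the named genes, HSF03 had log2 changes of -1.75 ± 0.13 in LK roots and -1.46 ± 0.13 in CK roots, and MT4A of -1.01 ± 0.09 in LK roots and -0.61 ± 0.09 in CK roots. Neither difference passed the test (adjusted p = 0.56 and 0.15). OsPIN5 averaged 53.9 units at 5 d and 54.2 units at 3 d in LK roots, and the difference from CK roots was not called (adjusted p = 0.17). The differences of APR1, HAK16, NSHB1 and LIR1 were called.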

How the data were processed

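RNA from rice roots was hybridized to the Affymetrix Rice Genome Array. The authors normalized the scanner data with dChip over all 18 arrays and deposited 1 linear intensity per probe set and array, and GCOS 1.0 and MAS5 are named in the submitters' processing notes. No detection calls were used here. Array precision is limited by the number of arrays.

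A floor of 10 was set before taking log2. From 57194 probe sets, the brightest 44% by mean log2 over the 18 arrays entered the tests (25165, lowest geometric mean 32.2). limma 3.58.1 in R 4.3.3 (lmFit, eBayes with an intensity trend) was fitted to the 6 groups, with 12 residual and 5.03 prior degrees of freedom, and p-values were adjusted by Benjamini-Hochberg over the kept probe sets. The procedure was tested on simulated data. Separate cultures are not stated beyond the pooling of seedlings, so p-values measure the spread between these pools.

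Probe sets were named through the platform annotation and RefSeq gene names, with 1 gene for 22436 probe sets, several for 95 and none for 34663 (17905 genes). Each gene was represented by its brightest kept probe set. The named genes are the 15 largest called rises and falls among named genes without overlap, up to 4 called members of each of 49 lists of gene names, all clock and photosynthesis members, and the 5 largest rises and falls of all. The members and lists were chosen with earlier results of these data known. Alternatives changed the filter, the floor, the normalization, the arrays in the fit, the trend and a replicate block, and left out each array. Promoter sequences were not analysed here. Replicate numbers were not treated as pairs in the main fit. Same-numbered CK 5 d and CK 3 d arrays had correlations of 0.035, 0.10 and 0.015 between their deviations. For arrays of different numbers the correlations ran from -0.092 to 0.043. These few values cannot show whether the numbers pair the arrays.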

Additional observations from a re-analysis of the deposited data

Results flagged for a closer look

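For 4 named genes the change between 5 d and 3 d differed between LK and CK roots by the limma interaction test (adjusted p over all probe sets tested), which is why they are listed.

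APR1, the sulfate reduction gene, averaged 2097 units at 5 d and 1942 units at 3 d in LK roots, against 1204 units at 5 d and 835 units at 3 d in CK roots, and the LK change minus the CK change was -0.42 on the log2 scale (adjusted p = 0.0073). HAK16 averaged 193 units at 5 d and 225 units at 3 d in LK roots, against 253 units at 5 d and 191 units at 3 d in CK roots, a difference of -0.63 (adjusted p = 0.033). NSHB1 fell in both, more in LK roots, where it averaged 1728 units at 5 d and 2961 units at 3 d, against 2982 units at 5 d and 3563 units at 3 d in CK roots, a difference of -0.51 (adjusted p = 0.020). LIR1, a light-induced gene, averaged 216 units at 5 d and 126 units at 3 d in LK roots, against 155 units at 5 d and 213 units at 3 d in CK roots, a difference of 1.18 (adjusted p = 0.023). In CK roots the fall of LIR1 by itself did not pass the test (adjusted p = 0.14), with 158, 157 and 151 units at 5 d and 283, 193 and 162 units at 3 d.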

How the results depend on the processing

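For probe sets changed between CK 5 d and CK 3 d, the count was 1250 with no filter (1022 higher, 228 lower), 591 with only the arrays compared (437 and 154) and 3866 by the study's threshold of a ratio of 1.2 with an unadjusted p (2986 and 880). Quantile normalization gave 982 higher and 885 lower, and median centring 815 and 1034. Leaving out 1 array gave 622 to 2887 changed, 490 to 2377 higher and 132 to 510 lower. Without CK 3 d replicate 2 there were 264 lower, and without CK 3 d replicate 3 there were 270. The difference between LK and CK was called for 112 probe sets with no filter and for 147 to 380 on leaving out 1 array. The median log2 change was 0 with no filter, -0.000578 after quantile normalization and -0.017 after centring. The log2 change of CESA6 turned to -0.030 with centring and ran from -0.016 (without CK 3 d replicate 1) to 0.11 on leaving out 1 array. That of GI turned to -0.011 with quantile normalization and -0.044 with centring, and that of OsrbcS ran from -1.13 to 0.19 (without CK 3 d replicate 2). The causes were not tested.

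Of 109 named called genes and probe sets none reversed under an alternative, and of their 1613 values 419 no longer passed the test. Among all genes with a name, whether described here or not, 34 were called in the same direction in all 15 alternative fits. With the replicate number as a block the fit called 2812 probe sets (2238 higher, 574 lower). The difference between LK and CK was then called for 286 probe sets. Whether the numbers pair the arrays is not known. The promoter motif search was not run. Without detection calls, little can be said of probe sets near the array medians, and with 3 pools a group nothing of single seedlings.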

Other observations

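A few of the probe sets tested had 1 array far from the others. They count among all probe sets in the totals above, and none of them is described there by itself. In CK 5 d replicate 3, OsAffx.23516.1.S1_at gave 18590 units, against 48.6 and 45.2 units in replicates 1 and 2. Os.22612.1.A1_at gave 4363 units there, against 672 and 665 units, and Os.26556.1.S2_at gave 3721 units, against 551 and 500.4 units. In CK 3 d replicate 3, OsAffx.19953.4.S1_s_at gave 7054 units, against 81.9 and 84.7 units in replicates 1 and 2.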
